A study of Mus musculus with 8 samples.

Results

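The cyclin-dependent kinase (CDK) inhibitor genes described here are the 7 mouse genes of the INK4 family (Cdkn2a, Cdkn2b, Cdkn2c and Cdkn2d) and the CIP/KIP family (Cdkn1a, Cdkn1b and Cdkn1c). They were chosen by gene symbol, taking every probe set that the platform annotation assigns to 1 of these genes alone. This gave 9 probe sets of 45037 non-control probe sets on the array, for 7 of 18193 genes with a single-gene probe set. Cdkn1a and Cdkn1b were each read by 2 probe sets, and the other members by 1 each.

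CDK inhibitors are brakes of the cell cycle. INK4 proteins bind CDK4 and CDK6 and keep them from their D-type cyclins, whereas CIP/KIP proteins bind whole cyclin-CDK complexes, those of CDK2 included. With the kinases held, the RB proteins stay unphosphorylated and E2F factors do not start the genes of DNA replication. Stem cells of the hair follicle rest through telogen, and these inhibitors are among the genes known to hold them there.

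The series compared resting follicle cells with and without a Runx1 transgene. Runx1 is a transcription factor of the RUNX family that has been tied to hair follicle stem cell activation. Cells were sorted from mouse skin whose follicles were all at rest (telogen), as positive for K15-GFP and α6-integrin. The CD34+ fraction was labelled bulge, the niche of the stem cells, and the CD34- fraction was labelled hair germ, the cluster of cells below the bulge. Each fraction came from wild-type (WT) mice, labelled Control, and from Runx1 iTG mice, labelled Tet-on Runx1 transgenic, with 2 arrays for each of the 4 groups. Controls and transgenics alike received doxycycline in the food (1 g per kg) over 1 day, with repression of H2BGFP named as its purpose. The sources used here do not name the cell type or promoter that drives the transgene. The samples were labelled postnatal day 20 apart from the second replicates of the transgenic fractions, which were labelled day 21.

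The values below are scaled signals: the deposited linear intensities, brought to a common 75th percentile on every array. A signal above 31.1, the 95th percentile of 27 bacterial control probe sets, was counted as above background, which held for 69.0% to 77.0% of probe sets on the 8 arrays. The Runx1 probe set 1452530_a_at read 489 to 904 on the WT arrays and 12107 to 19461 on the transgenic arrays. Xist, the transcript of the inactive X chromosome, read 30.2 to 72.5 on every replicate 1 array and 9973 to 11103 on every replicate 2 array, so replicate number and sex coincided.

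Cd34 separated the fractions as sorted, with 4902 to 11208 in the CD34+ cells and 1.52 to 53.2 in the CD34- cells. Itga6, which encodes the α6-integrin of the sort, did not differ past the threshold (-0.06, adjusted p of 0.867), and Krt15 was lower in the CD34- cells (-0.90, adjusted p of 0.00573). The markers of hair germ went against the label of the CD34- cells. Of 9 measured hair germ markers, 8 were lower in the CD34- cells than in the CD34+ cells and 0 were higher. Among them were Lgr5 (by -4.68 on the log2 scale) and Gli1 (by -4.18). The summed signal of the 9 was 2801 to 4519 against 33964 to 44589. Lgr5 is also among the bulge markers used here, so its fall alone does not go against the label. Sebaceous markers were higher in the CD34- cells for 7 of 7 genes, with a summed signal of 37028 to 58119 against 6295 to 13576. Pparg, the regulator of sebocyte differentiation, read 1070 to 4171 in the CD34- cells and 3.08 to 32.1 in the CD34+ cells, where both WT samples were below background. Of markers of other skin cells, 3 of 6 fibroblast and 2 of 6 melanocyte genes were lower in the CD34- cells, and 0 of 6 immune and 0 of 5 endothelial genes passed in limma (1 and 0 of them had an unadjusted p under 0.05). The 2 fractions are therefore called CD34+ and CD34- here. The sums of these markers moved with every difference between fractions given below, and their part in those results was not tested. The sebaceous sum was also higher in Runx1 iTG than in WT. It was 9465 to 13576 against 6295 to 7220 in the CD34+ cells and 56779 to 58119 against 37028 to 52765 in the CD34- cells. Of the 7 sebaceous genes, 5 were higher in the transgenic CD34+ cells, and 5 had an unadjusted limma p under 0.05. After adjustment 0 of them passed, in a comparison where 2 of all probe sets did. The fibroblast sum was higher too, at 9072.5 to 9162 against 4834 to 5713 (CD34+) and 351 to 700 against 250 to 344 (CD34-). The bulge sum was lower, at 111358 to 114175 against 118048 to 138193 and 28620 to 36997.5 against 41172 to 48930. In the CD34- cells alone, the differentiated keratinocyte sum (26782 to 36998 against 43456 to 47045) and the immune sum were lower without overlap. The part of these shifts in the genotype comparisons was not tested.

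Between the fractions, 3 of the 7 genes differed past an adjusted p of 0.05, against 17.0% of 18193 genes by their brightest probe set. Cdkn2c and Cdkn1a were higher in the CD34- cells, by 3.69-fold and by 2.69-fold or 1.97-fold depending on the probe set, and Cdkn1b was lower there, by 1.64-fold or 1.84-fold. These values average both genotypes, with 4 arrays on each side. Within either genotype alone, Cdkn1b did not pass on either probe set. In bulk samples of this kind, a different share of expressing cells and a different amount of RNA per cell cannot be told apart.

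By limma with Benjamini-Hochberg adjustment over all probe sets, 5 of 9 member probe sets passed at an adjusted p under 0.05, 3 higher and 2 lower in the CD34- cells. Over all probe sets, 14.0% passed, 6.63% higher and 7.39% lower. The 4 arrays of one fraction did not overlap the 4 of the other for 4 of the 9 member probe sets and for 19.4% of all probe sets. Within WT alone 2 of 9 passed, both higher, against 4.61% of all probe sets (2.02% higher and 2.59% lower), and 6 of 9 did not overlap, against 48.8%. Within Runx1 iTG alone 2 of 9 passed, both higher, against 6.98% (3.08% higher and 3.90% lower), and 7 of 9 did not overlap, against 48.9%. Without the intensity trend in the variance, Cdkn1a 1421679_a_at and Cdkn2c alone passed in the average, 2 of 9. These 3 comparisons share arrays and are not independent of one another.

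**Figure D1:**
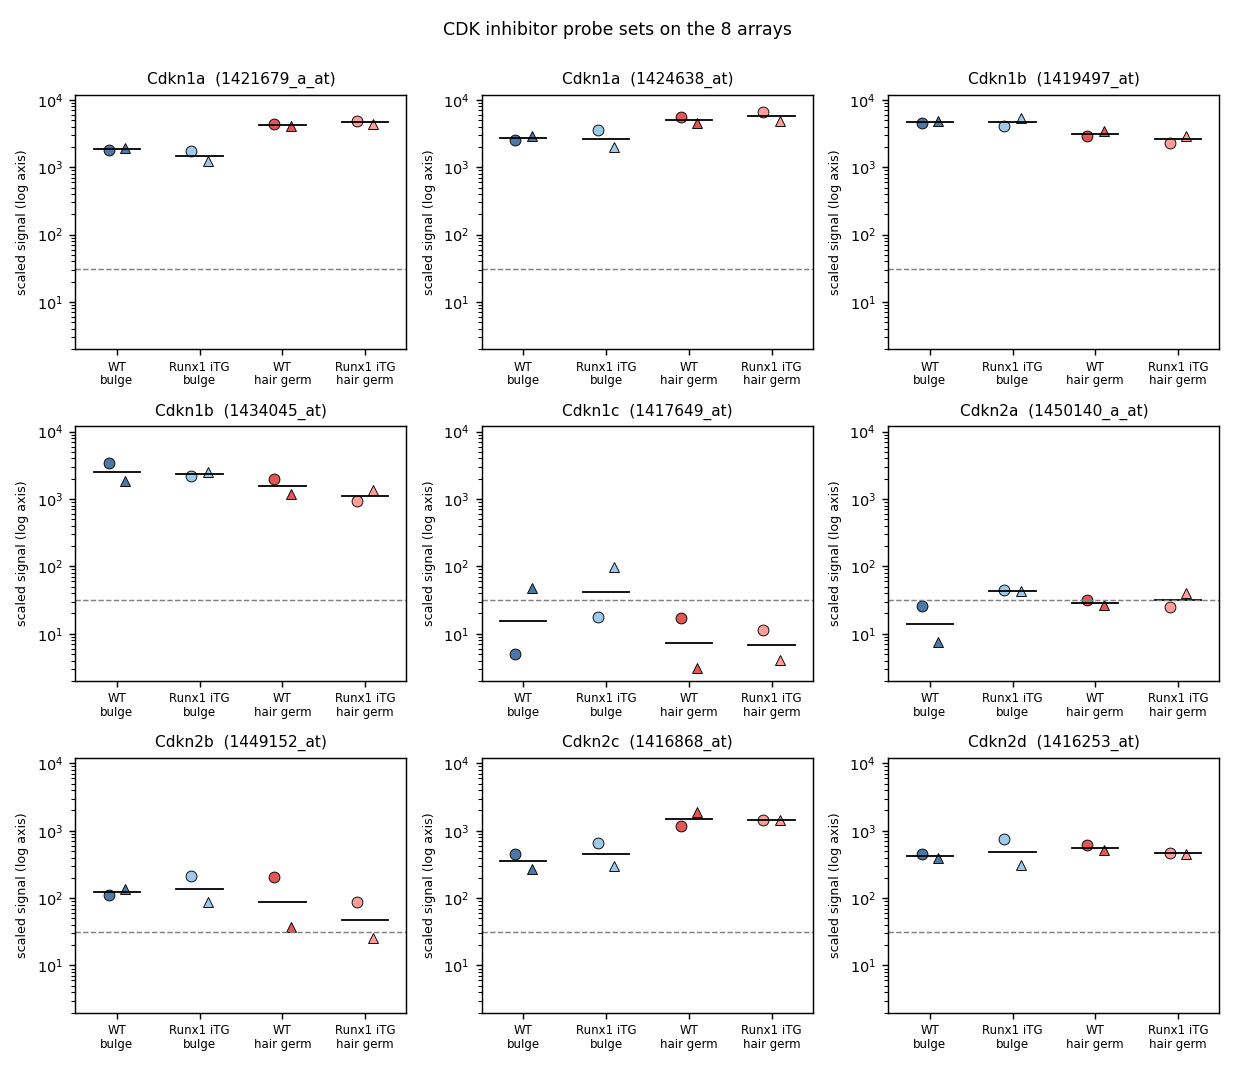
Scaled signal (log axis) of the 9 CDK inhibitor probe sets on the 8 arrays, with a circle for replicate 1, a triangle for replicate 2, a bar at the geometric mean of each group and a dashed line at the background limit of 31.1. Bulge is the label of the CD34+ cells and hair germ that of the CD34- cells. Cdkn1a and Cdkn2c sit higher on all 4 hair germ arrays than on the bulge arrays, and Cdkn1c and Cdkn2a lie around the dashed line.

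Cdkn2c encodes the INK4 protein p18, which binds CDK4 and CDK6. Its probe set 1416868_at read 458 and 268 in the WT CD34+ samples, 664 and 303 in the Runx1 iTG CD34+ samples, 1168 and 1896 in the WT CD34- samples and 1426 and 1443 in the Runx1 iTG CD34- samples. All 4 CD34- arrays were above all 4 CD34+ arrays, and the genotypes overlapped within each fraction. The difference of CD34- minus CD34+ was 2.09 ± 0.42 (log2, SE, 2 arrays a side) in WT, with a limma adjusted p of 0.0233. In Runx1 iTG it was 1.68 ± 0.42, with an adjusted p of 0.0433. Averaged over genotypes it was 1.88 ± 0.30, with an adjusted p of 0.00266 and a 95% confidence interval of 1.22 to 2.55. In order of geometric mean, the WT CD34+ group (350) and the Runx1 iTG CD34+ group (448) were the low pair and the Runx1 iTG CD34- group (1435) and the WT CD34- group (1488) the high pair. Neighbours within each pair did not differ beyond the spread between replicates. The averaged call held without any single array and was lost without the day 21 arrays, where the difference was 1.59. The day 21 arrays are replicate 2 of both transgenic fractions. Without them 1 array is left in each transgenic group, with 2 residual degrees of freedom. A call lost in that setting, here or below, cannot be read as an effect of age. The WT call had an adjusted p of 0.0644 to 0.210 without any one of the 4 WT arrays and of 0.0518 and 0.0522 without either transgenic CD34- array. The transgenic call, among fits without 1 array, held without Runx1 iTG CD34+ replicate 1 and had 0.0662 to 0.246 without each of the other arrays, and it was 0.0616 after quantile normalization.

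The base sequence before the annotated start is shown for Cdkn2c because it is the INK4 member that differed between fractions and because the transgene encodes a DNA-binding factor. Windows of 250 bases up to the start, in the direction of transcription, were taken from RefSeq on GRCm38.p6, where 9 windows represent 6 of the 7 genes. They were searched on both strands for the RUNX core TGTGGT, for the GC box GGGCGG, which is bound by SP family factors, and for the p53 half-site consensus. No search motif overlapped another in the windows printed. The exact run TGTGGT was in 0 of the 9 member windows and in 14.0% of 32851 promoter windows. Other forms of the RUNX core were not searched, so this count does not show that the members lack RUNX sites. The GC box was in 5 of 9 and in 32.7% of all windows. A match is a run of letters and not a shown binding site, and the lack of one concerns this window alone. The Cdkn2c window that holds 3 GC boxes, in capitals, lies at chr4:109666757-109667006 on the minus strand. The window of the other Cdkn2c start, chr4:109665373-109665622, holds 0 matches to each of the 3 motifs and is not printed.
Cdkn2c: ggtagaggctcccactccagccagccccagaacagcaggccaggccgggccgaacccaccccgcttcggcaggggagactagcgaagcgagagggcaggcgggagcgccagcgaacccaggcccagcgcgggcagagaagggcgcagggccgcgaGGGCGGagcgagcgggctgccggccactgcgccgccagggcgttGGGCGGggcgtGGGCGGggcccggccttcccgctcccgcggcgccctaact

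Cdkn2d encodes p19INK4d, the INK4 protein closest in action to p18. Its probe set 1416253_at read 448 and 388 in WT CD34+, 761 and 314 in Runx1 iTG CD34+, 609 and 516 in WT CD34- and 472 and 455 in Runx1 iTG CD34-. The 2 transgenic CD34+ arrays held both the highest and the lowest value of the 8. The averaged difference between fractions was 0.18 ± 0.28, with an adjusted p of 0.752 and a confidence interval of -0.46 to 0.81. The geometric means ran from 417 in WT CD34+ through 463 in Runx1 iTG CD34- and 489 in Runx1 iTG CD34+ to 561 in WT CD34-, and the transgenic CD34+ pair spanned the values of all other groups.

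Cdkn2b encodes p15, a target of TGF-beta signalling in keratinocytes. Its probe set 1449152_at was above background on 7 of 8 arrays and read 110 and 137 in WT CD34+, 216 and 88.3 in Runx1 iTG CD34+, 206 and 37.7 in WT CD34- and 88.9 and 25.3 in Runx1 iTG CD34-. Replicates of one group lay as far apart as the groups did. The averaged difference was -1.01 ± 0.65, with an adjusted p of 0.365 and an interval of -2.46 to 0.44. In order of geometric mean the groups were Runx1 iTG CD34- (47.4), WT CD34- (88.1), WT CD34+ (123) and Runx1 iTG CD34+ (138), and each overlapped its neighbour.

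Cdkn2a encodes both p16INK4a and, in another reading frame, p19ARF, and the data do not say which transcripts its probe set 1450140_a_at reads. It was above the background limit on 4 of 8 arrays. It read 25.7 and 7.61 in WT CD34+, 44.2 and 43.0 in Runx1 iTG CD34+, 31.7 and 26.4 in WT CD34- and 25.1 and 39.5 in Runx1 iTG CD34-. Both transgenic CD34+ arrays were above the limit and both WT CD34+ arrays below it. The averaged difference between fractions was 0.29 ± 0.61, with an adjusted p of 0.815 and an interval of -1.07 to 1.65. The lowest geometric mean was that of WT CD34+ (14.0), followed by WT CD34- (28.9), Runx1 iTG CD34- (31.5) and Runx1 iTG CD34+ (43.6), and no tested pair of them passed.

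Cdkn1a encodes p21, the CIP/KIP inhibitor that p53 switches on after DNA damage. The probe set 1421679_a_at read 1823 and 1907 in WT CD34+, 1726 and 1255 in Runx1 iTG CD34+, 4374 and 4159 in WT CD34- and 4922 and 4413 in Runx1 iTG CD34-. The fractions did not overlap, and the lowest CD34- array was well above the highest CD34+ array. The difference was 1.19 ± 0.23 in WT (2.29-fold, limma adjusted p of 0.0170) and 1.66 ± 0.23 in Runx1 iTG (3.17-fold, adjusted p of 0.00262). Averaged over genotypes it was 1.43 ± 0.16, with an adjusted p of 0.000377 and an interval of 1.07 to 1.78. This averaged call held in all 8 fits without 1 array and under all 8 other alternatives, whereas the WT call was lost without any one of the 4 WT arrays, with adjusted p-values of 0.0959 to 0.114. The transgenic call was lost without the day 21 arrays, where 1 array against 1 array gave a difference of 1.51. It was also lost without the intensity trend in the variance (adjusted p of 0.0600).

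The second Cdkn1a probe set, 1424638_at, read 2556 and 2918 in WT CD34+, 3536 and 2008 in Runx1 iTG CD34+, 5510 and 4477 in WT CD34- and 6699 and 4829 in Runx1 iTG CD34-. Again every CD34- array was above every CD34+ array. The averaged difference was 0.98 ± 0.21, with an adjusted p of 0.0128 and an interval of 0.51 to 1.45. Within one genotype it did not pass, with 0.86 in WT (adjusted p of 0.150) and 1.09 in Runx1 iTG (0.0591). The Runx1 iTG difference did pass under 6 of 11 other settings, among them the replicate number as a block (0.0412) and the block within genotype (0.0331), and also without Runx1 iTG CD34+ replicate 1 (0.0369). The WT difference passed only with the 2 Cdkn1a probe sets averaged (0.0418). The averaged call was lost without WT CD34+ replicate 1 (0.0594) or 2 (0.0518), WT CD34- replicate 1 (0.0614), Runx1 iTG CD34- replicate 1 (0.0666) or the day 21 arrays (0.0618). Over the 8 arrays, which fall into the 2 fractions, log2 values of the 2 Cdkn1a probe sets had a Pearson correlation of 0.94. On both probe sets the groups ranked in the same order of geometric mean: Runx1 iTG CD34+ (1472 and 2665), WT CD34+ (1865 and 2731), WT CD34- (4265 and 4967) and Runx1 iTG CD34- (4661 and 5688). Within a fraction, the genotypes did not overlap on 1421679_a_at and overlapped on 1424638_at, and no genotype difference passed the threshold on either.

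RefSeq places 2 starts at Cdkn1a on the plus strand, and both windows are shown because they differ in the motifs they hold. The window of the first start, chr17:29090729-29090978, holds 2 matches to the p53 half-site consensus, in capitals. The window of the second, chr17:29093519-29093768, holds 2 GC boxes, in capitals. The p53 half-site consensus was in 2 of the 9 member windows and in 7.13% of all windows. Which start the probe sets read was not tested.
Cdkn1a first start: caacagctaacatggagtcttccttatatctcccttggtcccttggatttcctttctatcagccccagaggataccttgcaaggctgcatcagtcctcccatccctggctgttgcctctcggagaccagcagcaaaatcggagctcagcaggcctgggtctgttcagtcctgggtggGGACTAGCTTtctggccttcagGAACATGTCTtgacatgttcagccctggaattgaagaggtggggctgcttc
Cdkn1a second start: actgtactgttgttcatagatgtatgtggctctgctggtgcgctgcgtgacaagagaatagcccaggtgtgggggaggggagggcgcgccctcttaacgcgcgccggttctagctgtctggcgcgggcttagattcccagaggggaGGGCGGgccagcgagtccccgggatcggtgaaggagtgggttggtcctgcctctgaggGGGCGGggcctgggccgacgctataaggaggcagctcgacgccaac

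Cdkn1b encodes p27, the CIP/KIP inhibitor that holds CDK2 in resting cells and is removed through the SKP2 ubiquitin ligase when they enter the cycle. Its probe set 1419497_at read 4597 and 4803 in WT CD34+, 4069 and 5363 in Runx1 iTG CD34+, 2870 and 3418 in WT CD34- and 2299 and 2953 in Runx1 iTG CD34-. All 4 CD34- arrays were below all 4 CD34+ arrays. The averaged difference was -0.71 ± 0.17, with an adjusted p of 0.0186 and an interval of -1.09 to -0.34. It was -0.59 in WT (adjusted p of 0.217) and -0.84 in Runx1 iTG (0.0645), neither past the threshold. The Runx1 iTG difference did pass under 5 of 11 other settings, among them quantile normalization (0.0437), no further scaling (0.0476) and the background filter (0.0451). The averaged call was lost without WT CD34+ replicate 1 (0.0542) or 2 (0.0727), WT CD34- replicate 1 (0.0740), Runx1 iTG CD34+ replicate 2 (0.0693) or Runx1 iTG CD34- replicate 1 (0.0807), and without the day 21 arrays (0.0915). In order of geometric mean the groups were Runx1 iTG CD34- (2605), WT CD34- (3132), Runx1 iTG CD34+ (4672) and WT CD34+ (4699), and neighbours within a fraction did not differ past the threshold.

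The second Cdkn1b probe set, 1434045_at, read 3436 and 1820 in WT CD34+, 2195 and 2489 in Runx1 iTG CD34+, 2000 and 1201 in WT CD34- and 923 and 1354 in Runx1 iTG CD34-. The fractions overlapped by one array on each side, since WT CD34- replicate 1 exceeded WT CD34+ replicate 2. The averaged difference was -0.88 ± 0.25, with an adjusted p of 0.0475 close to the threshold and an interval of -1.45 to -0.31. It was lost without WT CD34+ replicate 1 (0.154), WT CD34- replicate 2 (0.184) or any one of the 4 transgenic arrays (0.0642 to 0.174), and without the day 21 arrays (0.195). Within Runx1 iTG it was -1.06 (adjusted p of 0.121), and it passed there with the block within genotype (0.0343). The correlation between the 2 Cdkn1b probe sets was 0.76 over the 8 arrays. The window before the Cdkn1b start, chr6:134920151-134920400 on the plus strand, is shown as the member that differed in the other direction, and it holds 1 GC box in capitals.
Cdkn1b: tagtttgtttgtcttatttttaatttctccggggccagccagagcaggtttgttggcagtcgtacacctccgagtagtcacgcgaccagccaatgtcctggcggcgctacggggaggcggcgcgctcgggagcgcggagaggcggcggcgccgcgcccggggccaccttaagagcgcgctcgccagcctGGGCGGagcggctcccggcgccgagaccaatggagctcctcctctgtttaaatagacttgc

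Cdkn1c encodes p57, an imprinted CIP/KIP inhibitor. Its probe set 1417649_at was above background on 2 of 8 arrays, both of them replicate 2 of a CD34+ group. It read 5.06 and 47.2 in WT CD34+, 17.9 and 96.3 in Runx1 iTG CD34+, 17.0 and 3.08 in WT CD34- and 11.5 and 4.05 in Runx1 iTG CD34-. The CD34- arrays were all under the limit, with a measured mean of 6.82 in Runx1 iTG. The Runx1 iTG CD34+ mean of 41.5 was 1.33-fold above the limit, but of its values the 17.9 was itself below it. The difference of CD34- minus CD34+ in Runx1 iTG had a limma interval of -5.66 to 0.45, which includes 0, and an adjusted p of 0.333. Averaged over genotypes the difference did not pass (adjusted p of 0.259), and no size is given because the CD34- side was at background. The geometric mean was 7.22 in WT CD34- and 15.4 in WT CD34+, and each group overlapped the next in order.

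**Figure D2:**
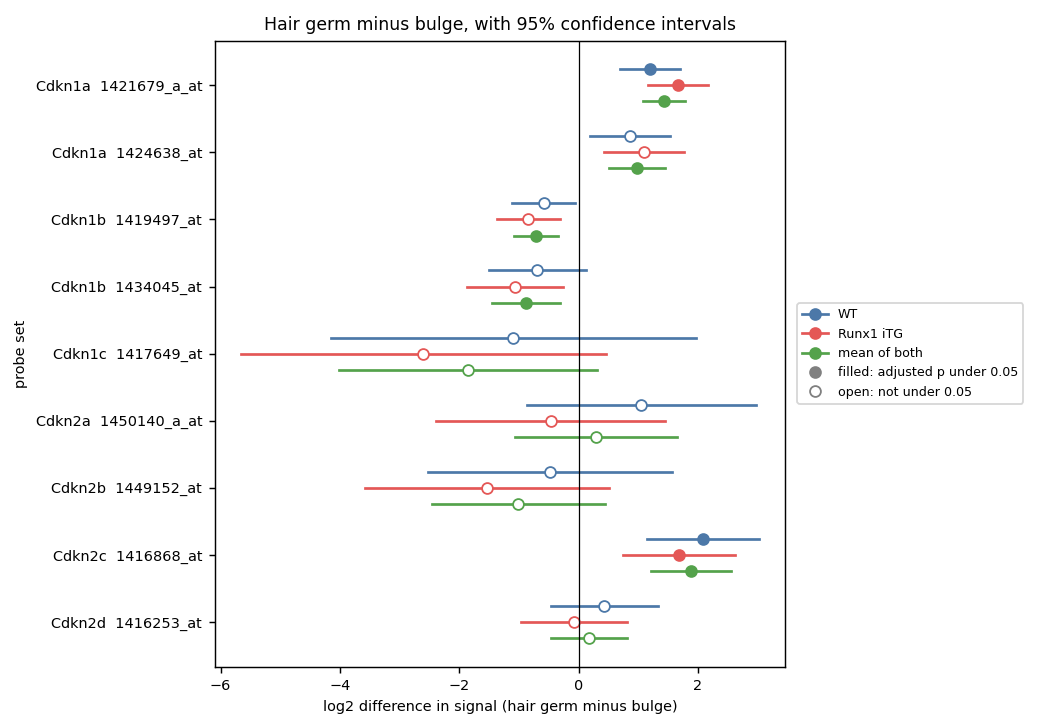
Difference in log2 signal of hair germ (CD34-) minus bulge (CD34+) for the 9 probe sets, in WT, in Runx1 iTG and averaged over both, with 95% confidence intervals from limma; filled points passed an adjusted p of 0.05. Cdkn2c and Cdkn1a lie right of 0 and Cdkn1b left of 0 in each estimate, and the intervals of Cdkn1c, Cdkn2a and Cdkn2b are the widest. Those of Cdkn1c and Cdkn2a rest on values near or below background.

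Between genotypes, none of the members differed past the threshold, while Runx1 itself was higher by 4.40 ± 0.25 in the CD34+ cells and by 4.67 ± 0.25 in the CD34- cells (log2, SE, 2 arrays a side). That Runx1 value holds for its brightest probe set, since the mean of all its single-gene probe sets gave -0.29 in the CD34- cells with an adjusted p of 0.944. In limma, 0 of 9 member probe sets passed in the CD34+ cells, where 2 of all probe sets did (0.00444%). The count was 0 of 9 in the CD34- cells, where 4 of all passed (0.00888%), and 0 of 9 for the average over fractions, where 17 did (0.0377%). In these 3 comparisons 0 member probe sets had an unadjusted p under 0.05, and the lowest adjusted p-values were 0.911, 0.924 and 0.799. With so few calls on the whole array, the members' count of 0 does not set them apart from other genes.

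The intervals give the size of genotype difference that these arrays leave possible. Averaged over fractions, they were narrower for the members well above background than for the dimmer ones. Within 1 fraction they were wider and reached past 1 log2 unit for some bright members. Examples are Cdkn2c (-0.59 to 1.30) and Cdkn2d (-0.66 to 1.13) in the CD34+ cells. In the CD34- cells they were Cdkn2d (-1.17 to 0.62) and Cdkn1b 1434045_at (-1.28 to 0.33). For Cdkn1a the average over fractions was -0.11 (95% interval -0.46 to 0.25) on 1421679_a_at and 0.08 (-0.39 to 0.55) on 1424638_at. For Cdkn1b it was -0.14 (-0.51 to 0.23) on 1419497_at and -0.28 (-0.85 to 0.28) on 1434045_at. The Cdkn2c value was 0.15 (-0.51 to 0.82) and the Cdkn2d value -0.02 (-0.66 to 0.61). The dimmer members had averaged intervals that reach past 1 log2 unit: 0.88 for Cdkn2a (-0.47 to 2.24), which was near background, and -0.36 for Cdkn2b (-1.81 to 1.08). No size is given for Cdkn1c, which was below background on all CD34- arrays (adjusted p of 0.913).

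Within one fraction, the genotypes did not overlap for 2 of 9 member probe sets in the CD34+ cells, against 33.3% of all probe sets. These were Cdkn1a 1421679_a_at, where both transgenic samples lay below both WT samples (-0.34, interval -0.85 to 0.16, adjusted p of 0.936), and Cdkn2a. For Cdkn2a both WT samples were below background, with a measured mean of 14.0, and the transgenic mean of 43.6 was 1.40-fold above the background limit. The limma interval of that genotype difference was -0.28 to 3.56, which includes 0, with an adjusted p of 0.911. In the CD34- cells 2 of 9 did not overlap, against 34.7%: Cdkn1a 1421679_a_at, there higher in the transgenic samples (0.13, interval -0.38 to 0.63), and Cdkn2d, there lower (-0.28, interval -1.17 to 0.62). Over the 4 arrays of each genotype, 0 of 9 member probe sets and 2.56% of all did not overlap. The test of whether the genotype difference depended on the fraction passed for 0 of 9 member probe sets and for 0% of all probe sets, with 0 members at an unadjusted p under 0.05. The member values in that test ran from -1.52, for Cdkn2a near background, to 0.47.

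**Figure D3:**
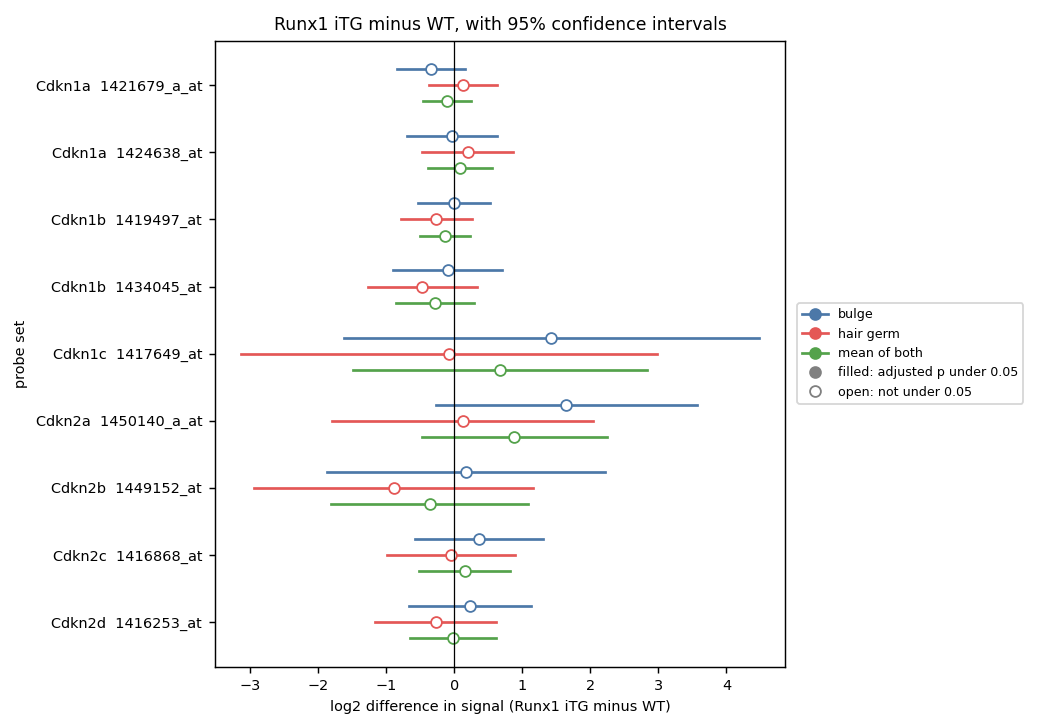
Difference in log2 signal of Runx1 iTG minus WT for the 9 probe sets, in bulge (CD34+), in hair germ (CD34-) and averaged over both, with 95% confidence intervals from limma. All intervals include 0 and no point is filled, the narrowest being those of Cdkn1a 1421679_a_at and Cdkn1b 1419497_at.

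Around the inhibitors, 12 of 14 proliferation markers were higher in the CD34- cells and 10 of 11 genes known for follicle stem cell rest were lower, while smaller shares of the other cell cycle lists passed. The counts that follow take 1 probe set per gene, the brightest, in the average over genotypes, where 17.0% of all genes passed, 8.55% higher and 8.46% lower, with a median difference of -0.09. The lists were chosen from textbook knowledge, with results of these data already known.

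Of the 8 G1 cyclins and CDKs that the inhibitors bind, 4 were higher and 1 was lower, with a list median of 0.72. Cdk6 (1.19) and Cdk4 (0.66), the kinases that INK4 proteins bind, and Ccnd2 (1.25), their cyclin D2 partner, were higher, whereas Ccnd3, cyclin D3, was lower (-1.24). Cdk6 read 1023 to 1622 in the CD34+ cells and 2337 to 3413 in the CD34- cells without overlap. Of 17 RB and E2F genes 5 were higher and 0 lower, with a median of 0.67, among them E2f3 (1.22), Tfdp2 (1.07), E2f8 (2.01) and Tfdp1 (1.22). These encode E2F factors and their DP partners.

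Of 11 measured S to M phase cyclins, kinases and regulators, 6 were higher and 1 was lower, with a median of 1.57. Cdk1 (1.85), Ccnb2 (1.82) and Aurka (1.36), which drive mitosis, were higher, and Cdc25b, a phosphatase that activates CDKs, was lower (-1.21). Of 14 proliferation markers 12 were higher and 0 lower, with a median of 1.80, led by the replication helicase genes Mcm6 (2.13), Mcm3 (1.85) and Mcm5 (2.48) and by Rrm2 (1.70). Their summed signal was 10000.5 to 20023 in the CD34+ cells and 38310.1 to 52434 in the CD34- cells. Of 13 genes listed under turnover of CDK inhibitor proteins 3 were higher and 0 lower, with a median of 0.23. The 3 were Dtl (2.13), which targets p21 for degradation, Cks2 (2.16) and Cops5 (0.74). Its place in the list does not show that Cks2 acts in that turnover. Cops5, Aurka and Ccnd3 did not pass when each gene's probe sets were averaged, and for Cops5 this mean gave -0.041 with an adjusted p of 0.926.

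Genes of pathways known to act on transcription of the inhibitors, targets of those pathways included, moved in both directions. Of 13 measured p53-related genes 1 was higher and 3 were lower, with a median of 0.08: Btg2 (0.84) was higher, and Trp63 (-0.85), Phlda3 (-0.999) and Zmat3 (-0.76) were lower. Trp53 itself was not analysed here. Of 21 genes of the TGF-beta, BMP and FOXO inputs 4 were higher and 6 lower, with a median of -0.20. Tgfbr2 (2.45), a receptor of TGF-beta, and the ligand gene Bmp4 (2.79) were higher, and Id3 (-3.36) and Id2 (-2.31), targets of BMP signalling, were lower. Of 14 measured Polycomb genes and opposing demethylases known at the Cdkn2a-Cdkn2b locus, 2 were higher and 0 lower, with a median of 0.17: Ezh2 (1.18), the methyltransferase, and Kdm2b (0.87). Of 11 quiescence factors of follicle stem cells 0 were higher and 10 were lower, with a median of -2.62, among them Lhx2 (-4.36), Tbx1 (-3.41), Gas1 (-2.80) and Nfatc1 (-2.62), transcription factors and, for Gas1, a surface protein of resting cells. This last list shares Nfatc1, Lhx2, Sox9, Tcf7l1 and Fgf18 with the markers of bulge, of which 11 of 12 were lower.

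Of the 33 genes named in these lists, 16 kept their call without the day 21 arrays and 18 without the intensity trend. Leaving out single arrays kept 22 to 31 of them, the fewest without WT CD34- replicate 2. Between genotypes 0 genes of any of these lists passed, in either fraction or on average.

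**Figure D4:**
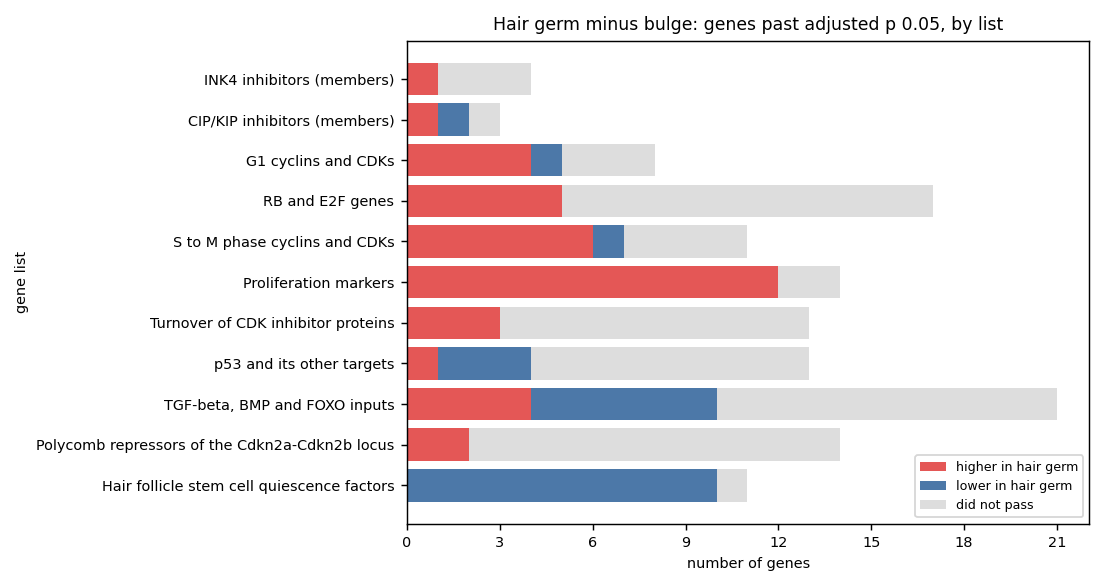
Number of genes in each list that passed an adjusted p of 0.05 in hair germ (CD34-) minus bulge (CD34+), averaged over genotypes, taking the brightest probe set of each gene. Proliferation markers have 12 of 14 genes higher, quiescence factors have 10 of 11 lower, and the 7 inhibitors have 2 higher and 1 lower.

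The genes whose log2 pattern over the 8 arrays was most like that of each member were taken among 4182 genes brighter than the median and with an SD of at least 0.5. The arrays form 2 fractions, so a high Pearson correlation can be reached by any gene that separates them, and all genes share the same arrays. For Cdkn2c these were Ezh2 (0.995), Ccnb2 (0.994) and Aldh9a1 (0.993), the first 2 being genes of the lists above. For Cdkn1a 1424638_at they were Cstf3 and Psmb10 (both 0.976) and Gsr (0.969). For Cdkn1b 1419497_at they were Cdsn (0.989), Cnfn (0.988) and Prodh (0.984). Cdsn and Cnfn are genes of the cornified layer of skin, and markers of differentiated keratinocytes were lower in the CD34- cells for 7 of 7 genes, with a summed signal of 26782 to 47045 against 63322 to 91409; their part in the Cdkn1b result was not tested. Among the members, Cdkn1a and Cdkn1b ran in opposite directions (-0.978), and Cdkn2c ran with Cdkn1a (0.866) and against Cdkn1b (-0.868).

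Within the set of genes compared above, the members with no called difference had lower best correlations than the called members. Any gene that separates the fractions can match a called member for that reason alone. The contrast therefore cannot show that the other members are less like other genes. The best match was Inka2 for Cdkn2d (0.938), Lrrc8e for Cdkn2b (0.920), Sat1 for Cdkn2a (0.956) and Itgb7 for Cdkn1c (0.956). Cdkn2a was not above background on 4 of these 8 arrays and Cdkn1c on 6.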

How the data were processed

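RNA of sorted mouse skin cells was measured on 8 Affymetrix mouse whole-genome expression arrays. Per the labels' protocols, 5 ng of RNA was amplified and biotin-labelled with NuGEN kits. The authors deposited a linear intensity for each of 45101 probe sets, with a trimmed mean of 500 on every array. The sources used here do not name the program that made these values.

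From these, 64 control probe sets were removed, arrays were brought to the same 75th percentile, a floor of 2.42 was set (reached by 3.48% of values), and values were put on the log2 scale. Dim members are less certain, since values near the background limit hold little signal. The platform annotation gave the gene names: 34945 probe sets had 1 symbol, 932 several and 9160 none. The 4 group means were estimated from the 8 arrays together in a single limma model (version 3.58.1, R 4.3.3) whose prior variance followed intensity. Benjamini-Hochberg adjustment ran over 45037 probe sets, with 4 residual degrees of freedom, and every adjusted p in the text comes from this fit unless a setting is named. A difference is a log2 difference with its SE. The fit was tested in 10 simulations with 200 changed probe sets each, for Runx1 iTG minus WT in the CD34+ cells. The changed probe sets were drawn from the brighter ones, and the simulated arrays held no difference between fractions. The fit recovered 7.16% of 2-fold, 55.5% of 4-fold and 84.5% of 8-fold changes. These shares average over probe sets of unlike spread and are not values for the members. A mean of 8.8 unchanged probe sets passed per simulation.

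The number of arrays limits the precision: the median SE was 0.604 between 2 groups and 0.427 between averages. Replicates are separate samples per the labels, whose numbers coincide with sex, and p-values measure the spread among them. The sources used here do not say whether both fractions of one replicate share animals, so averages may not rest on independent samples. The members, lists and tests were chosen with earlier results of these data known. All members and their probe sets are named. Of each other list, up to 4 genes past the threshold are named by unadjusted p, and of likeness the 3 highest correlations. Runx1, Cd34, Itga6 and Krt15 served to check the labels. The alternatives tried were other scalings, an offset in place of the floor, a background filter, no intensity trend, gene-level summaries, smaller fits, a replicate block and leaving out arrays.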

Additional observations from a re-analysis of the deposited data

How the results depend on the processing

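For CD34- minus CD34+ cells, averaged over genotypes, 5 member probe sets passed. The count was 2 without the intensity trend, 3 with 1 reference probe set per gene and 3 with a gene's probe sets averaged (both of which test 7 genes), 1 without the day 21 arrays, and 2 to 4 without single arrays. Within WT, where 2 passed, it was 0 without the trend, 1 with 1 reference probe set per gene, 0 with only the groups compared, 0 without the day 21 arrays, and 0 to 2 without single arrays. Within Runx1 iTG, where 2 passed, it was 4 with the background filter, 0 without the trend, 1 with only the groups compared, 4 with the replicate block within genotype, 0 without the day 21 arrays, and 1 to 3 without single arrays. The cause of these changes was not tested, beyond the fewer samples or genes that a setting leaves. In the genotype comparisons and the interaction 0 members passed under any of these settings. No called member changed sign.

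Over all probe sets the median of the averaged difference between fractions was -0.14, against 0.02 after quantile normalization and -0.20 with no further scaling. The number called in that comparison was 6316, against 3276 without the trend and 2125 without the day 21 arrays. In WT the 2078 calls became 557 without the trend, 720 with only the groups compared and 659 without the day 21 arrays. In Runx1 iTG the 3142 calls became 861, 912 and 87 in the same settings. Between genotypes averaged over fractions, 17 calls became 61 with the background filter, 28 with the offset and 1 without the trend. Within the CD34+ cells 2 became 12 with the filter, and within the CD34- cells 4 became 20 with the filter and 16 with the offset.

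The replicate number as a block gave 2 member calls in WT, 3 in Runx1 iTG, 5 on average and 0 between genotypes. The labels do not say that a number marks shared animals, so the pairing was not used. Over 25988 probe sets, deviations of same-numbered samples correlated at -0.04 between the WT fractions and at 0.14 between the Runx1 iTG fractions. Across genotypes, where animals cannot be shared, the correlations were -0.09 to 0.18. With a gene's probe sets averaged, 2 other values changed sign: Runx1 1452530_a_at between genotypes in the CD34- cells (-0.29, adjusted p of 0.944) and Cops5 1460171_at between fractions (-0.041, adjusted p of 0.926). Signal over background limits Cdkn1c, not above it on 6 of 8 arrays, and Cdkn2a, on 4 of 8.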
